A study of Arabidopsis thaliana with 12 samples.

Results

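The genes described here are 10 that carry out or control the synthesis of indolic glucosinolates: the regulators *MYB34*, *MYB51* and *MYB122*, the core enzymes *CYP79B2*, *CYP79B3*, *CYP83B1* and *UGT74B1*, and the ring-modifying enzymes *CYP81F2*, *CYP81F3* and *CYP81F4*. They were taken by name from the gene column of the deposited comparison tables, and all 10 were found among the 36101 loci of each table. The rule used no measured value.

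The seedlings were of ecotype Columbia-0 and carried either the *ali1* mutation, a T-DNA insertion in *At5g14470* (*ALI1*), or no mutation (wild type Col-0). After 2 weeks on plates they received oxo-C14-HSL at 6 µM, or acetone as its solvent control, and 3 days later all of them were given 100 nM flg22 for 2 h before harvest. The 4 groups, each of 3 libraries, were *ali1* after oxo-C14-HSL, *ali1* after acetone, Col-0 after oxo-C14-HSL and Col-0 after acetone. Bacteria use oxo-C14-HSL, an N-acyl homoserine lactone with a long acyl chain, as a quorum sensing signal, and the study asked whether priming by it depends on *ALI1*. The peptide flg22 is a piece of bacterial flagellin that sets off the immune response of plants. As every group received flg22, the tables hold no measure of the response to flg22 itself. The mutant was represented by 1 insertion line, and RNA came from whole seedlings, so roots and shoots were measured together.

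Glucosinolates are sulfur-rich glucosides of the cabbage order that are stored in the cell and split by myrosinases on wounding or attack. The indolic ones are made from tryptophan. *CYP79B2* and *CYP79B3* turn tryptophan into indole-3-acetaldoxime, *CYP83B1* oxidises the aldoxime, and after addition of sulfur from glutathione *UGT74B1* adds the glucose. Cytochromes of the CYP81F family then hydroxylate the indole ring, and the products are methylated. In Arabidopsis the methoxylated product made through *CYP81F2*, and its breakdown by the myrosinase *PEN2*, are known for their part in the callose response to flg22.

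The deposited values are FPKM, fragments scaled to transcript length and sequencing depth, with 1 value per group over its libraries from a separate run of cuffdiff for each genotype label. They hold no value per library. No spread between replicates can therefore be given, no difference below was tested, and the words higher and lower describe the authors' group values only. The ratio of oxo-C14-HSL to acetone is given as log2 with 0.1 FPKM added to both values, which understates the ratio of genes at a low level. A locus was kept in a comparison at a mean of at least 1 FPKM over both of its groups, and a 2-fold ratio is a log2 ratio of at least 1 or at most −1. From the spacing of the lowest values, the depth was about 23500000, 23200000, 24200000 and 22600000 reads per library in the order of the groups above. This is an approximation, since it assumes that a group's value is the mean of its libraries and that the effective length is that of the transcript less 200 bases, and it was used for estimated read numbers only.

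Checks of the labels gave a conflict that touches every comparison between genotypes. The description field of the samples titled Col-0 names the table of *ali1*, and that of the samples titled *ali1* names the table of Col-0. The level of *ALI1* itself was 30.1 and 27.4 FPKM under the *ali1* label after oxo-C14-HSL and after acetone, against 11.1 and 15.0 FPKM under the Col-0 label. The mean under the *ali1* label was thus 2.21 times that under the Col-0 label, which goes against the label of an insertion in this gene. The value sums reads over the whole gene, so reads from either side of an insertion count towards it. The cause of the higher level under the *ali1* label was not tested, nor was whether the names of the 2 tables are exchanged. If they were, the *ali1* and Col-0 labels would change places in every comparison below. Groups are called by the column names of the tables throughout.

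The 10 genes spanned a wide range of levels, and their order was much the same in the 4 groups. *CYP83B1* was highest in every group, at 741 and 1116 FPKM under the *ali1* label after oxo-C14-HSL and after acetone and at 851 and 828 FPKM under the Col-0 label. *UGT74B1* came next in every group, and *CYP79B3* lay sixth. *MYB122* and *CYP81F3* were at the bottom in every group, between 0.220 and 1.41 FPKM. The places in between changed among *CYP79B2*, *CYP81F2* and *CYP81F4*, and between *MYB34* and *MYB51*. Whether neighbours in this order differ beyond the spread of the libraries cannot be said from 1 value per group. FPKM is a level per length, so it can be set side by side between genes.

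**Figure D1:**
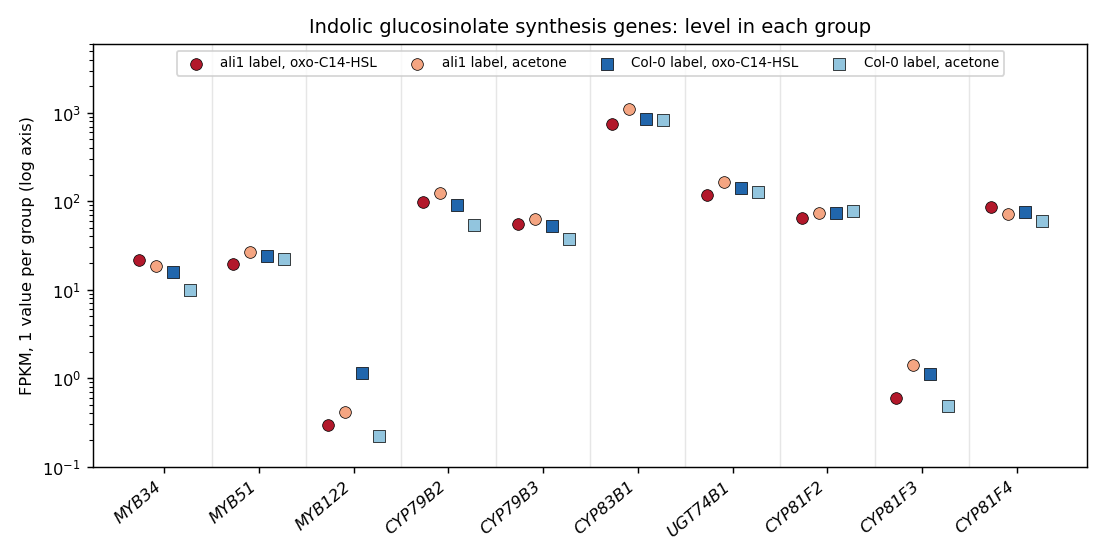
The FPKM of each indolic glucosinolate gene (log axis) in the 4 groups, 1 point per group over its 3 libraries and no error bars, as no value per library was used. *CYP83B1* lies highest, at 741 to 1116 FPKM, and *MYB122* and *CYP81F3* lie lowest, at 0.220 to 1.41 FPKM.

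The 3 regulators belong to the R2R3 family of MYB transcription factors and activate the genes of the indolic pathway. *MYB34* (*At5g60890*, chr5:24494291-24496371, plus strand) had 21.6 FPKM after oxo-C14-HSL and 18.4 FPKM after acetone under the *ali1* label, against 15.7 and 9.99 FPKM under the Col-0 label. It was higher after oxo-C14-HSL under both labels, with log2 ratios of 0.23 (*ali1*) and 0.65 (Col-0). *MYB51* (*At1g18570*, chr1:6389399-6391386, plus strand), the regulator best known from responses to flg22, had 19.6 and 26.9 FPKM under the *ali1* label, against 24.0 and 22.3 FPKM under the Col-0 label. Its log2 ratio was −0.45 under the *ali1* label and 0.10 under the Col-0 label.

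*MYB122* (*At1g74080*, chr1:27855578-27857598, plus strand) had the lowest level of the 3 regulators and the widest ratio. Its values were 0.293 FPKM after oxo-C14-HSL and 0.413 FPKM after acetone under the *ali1* label, against 1.15 and 0.220 FPKM under the Col-0 label. The Col-0 group after oxo-C14-HSL stood apart from the other groups, and the log2 ratios were −0.39 (*ali1*) and 1.97 (Col-0). These values correspond to about 28, 39, 114 and 20 reads over the 3 libraries of each group, in the order of the groups given first, against 1066 to 2402 for *MYB34*. The mean of *MYB122* was below 1 FPKM under both labels, so it is outside the loci kept. With 1 FPKM added in place of 0.1 its log2 ratio under the Col-0 label was 0.82. In coding sequence *MYB122* was closer to *MYB51* (77.2% identical) than to *MYB34* (70.0%).

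The next pair of genes starts the pathway. Both encode tryptophan N-monooxygenases of the endoplasmic reticulum, and their product also feeds camalexin and auxin. *CYP79B2* (*At4g39950*, chr4:18525042-18527602, plus strand) had 96.9 FPKM after oxo-C14-HSL and 124 FPKM after acetone under the *ali1* label, against 89.9 and 54.6 FPKM under the Col-0 label. *CYP79B3* (*At2g22330*, chr2:9488413-9491404, plus strand) had 54.6 and 62.6 FPKM under the *ali1* label, against 52.9 and 37.5 FPKM under the Col-0 label. In both genes the *ali1* group after acetone was the highest and the Col-0 group after acetone the lowest. The log2 ratios of *CYP79B2* were −0.36 (*ali1*) and 0.72 (Col-0), a difference of −1.08 (*ali1* minus Col-0). Those of *CYP79B3* were −0.20 (*ali1*) and 0.50 (Col-0), a difference of −0.69. The locus of *CYP79B2* in the tables also holds *AT4G39952* and *AT4G39955*, whose reads cannot be separated from it.

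The coding sequences of *CYP79B2* and *CYP79B3* were 81.1% identical over 1692 aligned bases, and no stretch of 100 bases of either transcript was found elsewhere in the genome. The genes lie on different chromosomes, yet the 250 bases upstream of their annotated starts held 2 shared stretches, of 17 and 22 bases, separated by a single base that differs. They lay from −95 to −79 and from −77 to −56 in *CYP79B2*, and from −169 to −153 and from −151 to −130 in *CYP79B3*, counted from the base before the annotated start (−1). Read in the direction of each gene, the stretch of 22 bases was found in these 2 of 27438 upstream windows of protein-coding genes. The opposite strand of the windows was not searched for it. The longest stretch shared by any of the other 44 pairs of the 10 genes was between 7 and 13 bases. Both windows are shown 5′ to 3′, with the shared stretches in capitals (TAIR10.1, RefSeq, chr4:18524792-18525041 and chr2:9488163-9488412, plus strand).

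CYP79B2: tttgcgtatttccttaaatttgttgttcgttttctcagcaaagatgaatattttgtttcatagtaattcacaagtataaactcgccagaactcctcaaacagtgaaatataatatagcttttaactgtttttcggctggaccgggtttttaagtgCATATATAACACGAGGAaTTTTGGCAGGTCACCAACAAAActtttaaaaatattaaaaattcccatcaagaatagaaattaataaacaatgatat

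CYP79B3: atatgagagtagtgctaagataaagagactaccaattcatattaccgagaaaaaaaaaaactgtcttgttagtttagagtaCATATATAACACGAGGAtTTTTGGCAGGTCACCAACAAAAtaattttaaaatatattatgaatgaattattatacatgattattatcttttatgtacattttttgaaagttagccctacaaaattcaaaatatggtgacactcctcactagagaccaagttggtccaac

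The shared stretches are a description of the sequence, and their part in the levels was not tested. *CYP83B1* (*At4g31500*, chr4:15273410-15275404, minus strand), the cytochrome that commits the aldoxime to glucosinolates, had 741 FPKM after oxo-C14-HSL and 1116 FPKM after acetone under the *ali1* label, against 851 and 828 FPKM under the Col-0 label. The log2 ratio was −0.59 under the *ali1* label and 0.04 under the Col-0 label, where both groups had nearly the same value. By the estimate of depth it had between 88735 and 131838 reads over the 3 libraries of a group, against 12245 to 17018 for *UGT74B1*.

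*UGT74B1* (*At1g24100*, chr1:8525334-8527087, minus strand), the S-glucosyltransferase of the core pathway, had 118 FPKM after oxo-C14-HSL and 166 FPKM after acetone under the *ali1* label, against 141 and 127 FPKM under the Col-0 label. The *ali1* group after acetone was again the highest and the *ali1* group after oxo-C14-HSL the lowest. The log2 ratios were −0.50 (*ali1*) and 0.15 (Col-0), a difference of −0.65, close to the −0.63 of *CYP83B1*.

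The CYP81F enzymes act last. Under the *ali1* label their log2 ratios were −0.16 (*CYP81F2*), 0.25 (*CYP81F4*) and −1.11 (*CYP81F3*, at a low level), against −0.59 to −0.20 for the core enzymes. Under the Col-0 label they were −0.09, 0.33 and 1.07 in the same order, against 0.04 to 0.72 for the core enzymes. The wider spread of the CYP81F enzymes thus rested on *CYP81F3*. *CYP81F2* (*At5g57220*, chr5:23187840-23189902, plus strand), which hydroxylates a ring carbon, had 65.1 and 72.8 FPKM under the *ali1* label after oxo-C14-HSL and after acetone, against 72.8 and 77.5 FPKM under the Col-0 label. It was the only one of the 10 genes with a lower value after oxo-C14-HSL under both labels (log2 ratios of −0.16 for *ali1* and −0.09 for Col-0), and its highest value was 1.19 times its lowest, the narrowest range of the 10. Its locus also holds *AT5G57230*, whose reads cannot be separated from it.

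*CYP81F4* (*At4g37410*, chr4:17590772-17592920, plus strand), which hydroxylates the ring nitrogen, had 85.1 FPKM after oxo-C14-HSL and 71.3 FPKM after acetone under the *ali1* label, against 76.1 and 60.4 FPKM under the Col-0 label. It was higher after oxo-C14-HSL under both labels by nearly the same log2 ratio, 0.25 (*ali1*) and 0.33 (Col-0). With *MYB34* it was one of the 2 genes higher under both labels. An antisense gene, *AT4G37409* (17590769 to 17592911, minus strand), covers nearly the whole gene. It was listed at 0.357 and 0.590 FPKM under the *ali1* label and at 0.507 and 0.135 FPKM under the Col-0 label, and since the sources used here do not state whether counting used strand, reads of the pair may have been shared.

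*CYP81F3* (*At4g37400*, chr4:17583992-17586442, plus strand) lies 4329 bases before *CYP81F4* on the same strand, and has the same known activity as *CYP81F2*. It had 0.601 FPKM after oxo-C14-HSL and 1.41 FPKM after acetone under the *ali1* label, against 1.11 and 0.480 FPKM under the Col-0 label. The order of the treatments was thus opposite under the 2 labels, with log2 ratios of −1.11 (*ali1*) and 1.07 (Col-0). About 70, 162, 134 and 54 reads over the 3 libraries of a group stand behind these values, in the same order of groups. The gene was kept under the *ali1* label with a mean of 1.01 FPKM, just over the limit and only through its acetone group, and was not kept under the Col-0 label. With 1 FPKM added in place of 0.1 the log2 ratios were −0.59 (*ali1*) and 0.51 (Col-0).

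The coding sequences of *CYP81F3* and *CYP81F4* were 82.0% identical, about as much as those of the CYP79B pair, while *CYP81F2* shared 73.2% with *CYP81F3* and 70.7% with *CYP81F4*. Unlike the CYP79B pair, the tandem pair had no upstream stretch of more than 9 bases in common when read in the same direction. Their windows are shown because the neighbours differed in level in every group and the order of the treatments differed between them under the *ali1* label (TAIR10.1, RefSeq, chr4:17583742-17583991 and chr4:17590522-17590771, plus strand). Capitals mark the W-box core TTGAC, here as GTCAA on the other strand. The last bases of the *CYP81F4* window overlap the antisense gene.

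CYP81F3: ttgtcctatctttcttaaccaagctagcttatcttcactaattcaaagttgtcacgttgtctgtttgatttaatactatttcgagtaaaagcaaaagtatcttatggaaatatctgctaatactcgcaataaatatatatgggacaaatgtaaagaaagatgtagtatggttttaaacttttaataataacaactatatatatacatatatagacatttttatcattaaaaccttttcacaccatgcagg

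CYP81F4: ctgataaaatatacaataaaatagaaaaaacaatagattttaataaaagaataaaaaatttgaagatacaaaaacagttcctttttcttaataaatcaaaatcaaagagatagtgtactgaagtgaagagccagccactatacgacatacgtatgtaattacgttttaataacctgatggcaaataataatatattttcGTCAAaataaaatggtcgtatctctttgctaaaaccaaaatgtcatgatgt

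The W-box core TTGAC, known as a binding site of WRKY transcription factors, was searched on both strands of the 250 bases upstream. It was found in 3 of the 10 genes (*MYB51*, *CYP81F2* and *CYP81F4*), against 44.9% of the 27438 windows of protein-coding genes. The G-box CACGTG, known as a site of MYC factors, was in 0 of the 10, against 6.49% of all windows. Of the 3 forms of the AC element, known as a site of MYB factors, ACCAACC was found in 1 of the 10 genes (*UGT74B1*), against 2.69% of all windows. The form ACCTACC was in 0 of the 10, against 1.16% of windows. The form ACCTAAC was also in 0 of the 10, against 2.46% of windows, and 6.12% of windows held any of these forms.

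Under the *ali1* label, 9 of the 10 genes were kept, and 7 of these 9 were lower after oxo-C14-HSL and 2 higher. Among all 16766 loci kept, 46.8% were lower and 53.2% higher. The median log2 ratio of the 9 genes was −0.36 (−0.37 over all 10), beside 0.010 over all loci kept, of which the middle 50% lay between −0.092 and 0.10. Past 2-fold, 1 of the 9 was lower (*CYP81F3*) and 0 were higher, against 0.543% and 0.34% of the loci kept. *CYP81F3* passed the limit only through its acetone group, the group that makes its ratio low. Its call is therefore no independent result, and it also enters the other counts given here. At a limit of 5 FPKM, which leaves it out, 0 genes were past 2-fold and the median was −0.28. Among loci with a mean between 0.3 and 1.5 FPKM, the range in which *CYP81F3* lies, 4.78% were 2-fold lower. At 1.5-fold, 2 of the 9 were lower (*CYP83B1* and *CYP81F3*) and 0 higher, against 2.13% and 1.03% of the loci kept. Most of the pathway thus lay below the middle of all loci under this label, by less than 2-fold.

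In the comparison labelled Col-0, 8 of the 10 genes passed the limit on level, and 7 of these 8 were higher after oxo-C14-HSL and 1 lower (*CYP81F2*). Among all 16856 loci kept, 46.8% were higher and 53.2% lower. The median log2 ratio of the 8 genes was 0.24 (0.41 over all 10), beside −0.017 over all loci kept, of which the middle 50% lay between −0.16 and 0.17. None of the 8 was past 2-fold in either direction, against 1.58% of the loci kept that were 2-fold higher and 0.415% that were lower. At 1.5-fold, 2 of the 8 were higher (*MYB34* and *CYP79B2*) and 0 lower, against 6.4% and 1.75%.

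Without the limit on level, 2 of the 10 genes were 2-fold higher under the Col-0 label, *MYB122* and *CYP81F3*, against 3.81% of the 24943 loci with any value above 0. Among loci between 0.3 and 1.5 FPKM, the range of both genes, 11.1% were 2-fold higher. The ratio depended on level under this label, whereas it hardly did under the *ali1* label. Over the eighth of kept loci at the bottom of the FPKM scale and the eighth at its top, the medians were −0.0042 and 0.0044 (*ali1*) and 0.24 and −0.095 (Col-0). For the 8 genes kept, the running median at their levels lay between −0.11 and −0.04, below the ratio of each of them. With the running median taken off, their median log2 ratio was 0.35 and that of *CYP81F3* was 0.81.

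**Figure D2:**
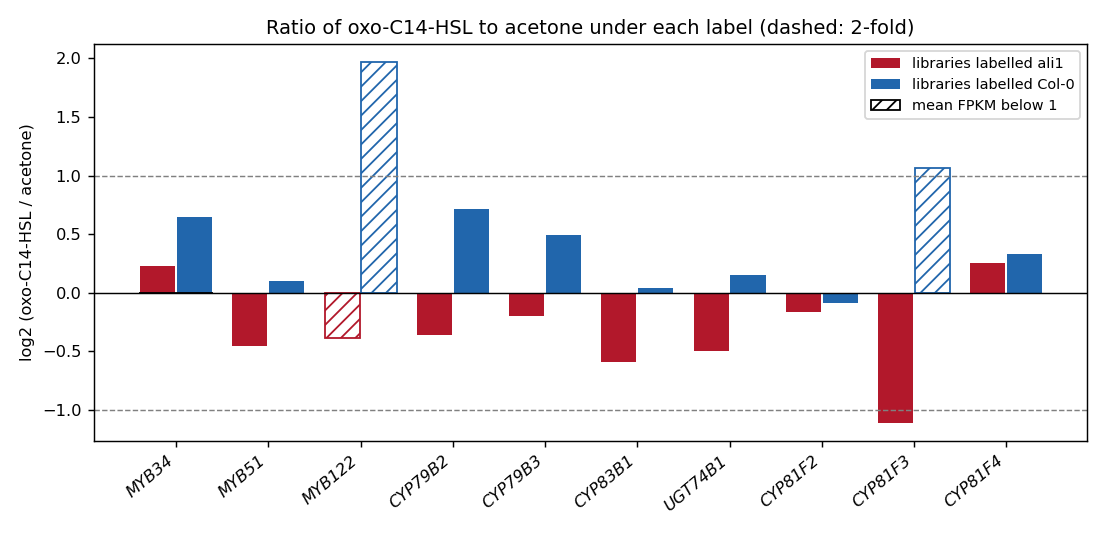
The log2 ratio of oxo-C14-HSL to acetone for each indolic glucosinolate gene under the *ali1* label (red) and the Col-0 label (blue), 1 value per label without error bars, hatched where the mean was below 1 FPKM. Values under the *ali1* label ran between −1.11 and 0.25, and those under the Col-0 label between −0.09 and 1.97.

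**Figure D3:**
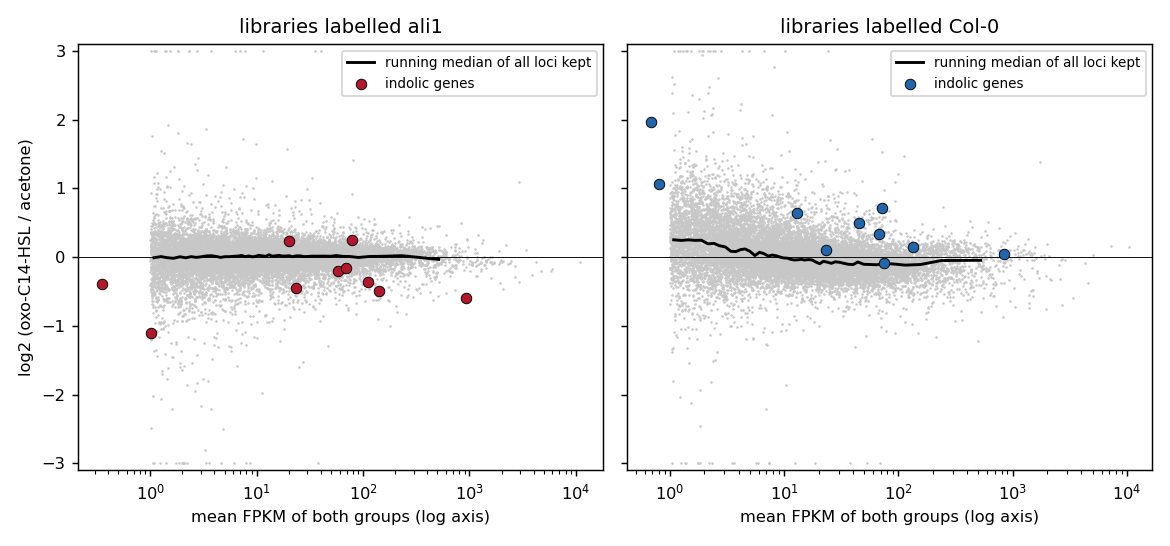
The log2 ratio of oxo-C14-HSL to acetone against the mean FPKM of both groups (log axis) under each label, with all loci kept in grey (limited to ±3), their running median as a line and the indolic glucosinolate genes as large points. The running median bends with level under the Col-0 label and stays near 0 under the *ali1* label.

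The ratios under the 2 labels share no samples, so each gene's ratio under the *ali1* label can be set against that under the Col-0 label. In 7 of the 10 genes (*MYB51*, *MYB122*, *CYP79B2*, *CYP79B3*, *CYP83B1*, *UGT74B1* and *CYP81F3*) the value after oxo-C14-HSL was lower under the *ali1* label and higher under the Col-0 label. Of the 8 genes kept under both labels 5 had this pattern, against 19.6% of the 16528 loci kept under both. The difference (*ali1* minus Col-0) was below 0 in 10 of the 10 genes and in 8 of the 8 kept, against 45.5% of all loci. Its median was −0.59 over the 8 genes and −0.64 over all 10, beside 0.028 over all loci, of which the middle 50% lay between −0.17 and 0.17. The differences of *CYP81F2* (−0.07) and *CYP81F4* (−0.08) were the smallest, and those of *MYB122* (−2.35) and *CYP81F3* (−2.17) the largest. A difference of 2-fold or more was seen in 1 of the 8 (*CYP79B2*, lower), against 2.56% of loci that were lower and 0.75% that were higher. Without the limit on level it was seen in 3 of the 10, against 6.66% of loci. None of these differences could be tested.

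**Figure D4:**
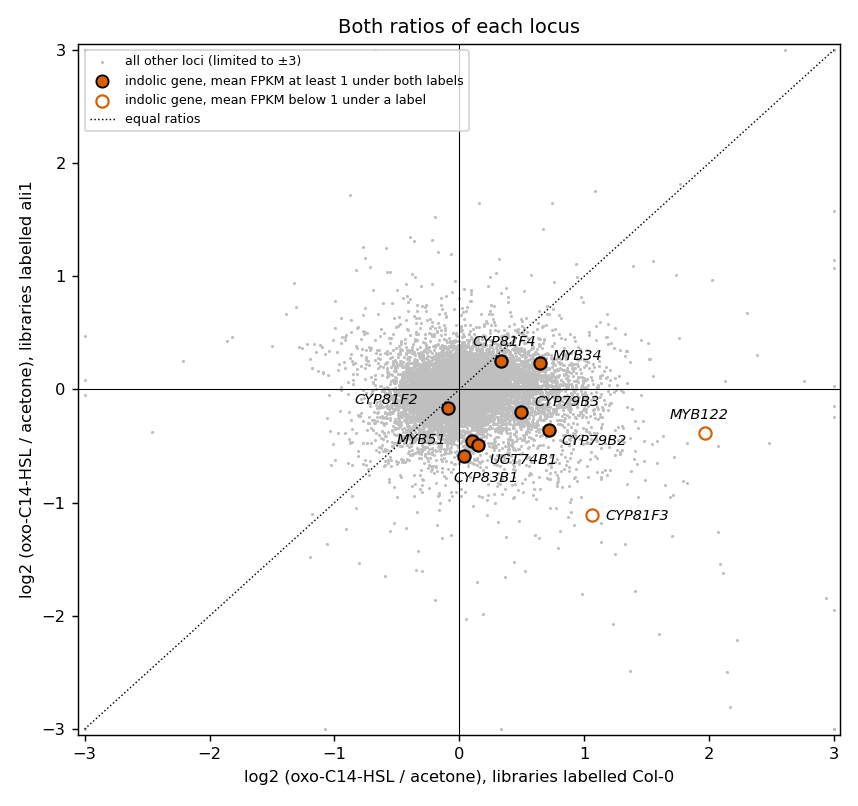
The log2 ratio of oxo-C14-HSL to acetone under the *ali1* label against that under the Col-0 label, with each indolic glucosinolate gene named and all other loci in grey. All 10 genes lie below the dotted line of equal ratios, 7 of them below 0 on the vertical axis and above 0 on the horizontal one.

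Levels under the 2 labels come from separately normalized runs, so they are set side by side only as a description. They also share groups with the ratios above and are no independent result. Of the 10 genes, 6 had their highest level in the *ali1* group after acetone, and 6 had their lowest level in the Col-0 group after acetone. The share of all loci with these extremes was not counted, so whether 6 of 10 is unusual cannot be said. The 8 genes and 16846 loci with a mean of at least 1 FPKM over the 4 groups were compared first. After acetone, 7 of these 8 genes were higher under the *ali1* label than under the Col-0 label, with a median log2 ratio of 0.41, against 40.9% of the loci above 0 and a median of −0.044. The exception was *CYP81F2* (−0.09), and *CYP79B2* (1.19) was past 2-fold, against 1.16% of the loci. After oxo-C14-HSL, 4 of the 8 were higher under the *ali1* label and 4 lower, with a median of −0.06, against 44.8% of the loci above 0 and a median of −0.021. None of the 8 was past 2-fold, against 1.14% of the loci lower by as much. With *MYB122* and *CYP81F3*, which lie below the limit, 9 of 10 were higher after acetone (median 0.56) and 4 of 10 after oxo-C14-HSL (median −0.18). *CYP81F3* was then past 2-fold after acetone (1.38) and *MYB122* after oxo-C14-HSL (−1.67). The shares of all loci without the limit on level were not counted here. Whether these counts and calls over all 10 genes are unusual therefore cannot be said. Centred on the median of the loci, which puts 50% of them above 0, the counts stayed at 9 and 4 of 10.

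The other genes of the pathway, a list of 18 with further enzymes, sulfate activation, transporters and MYC regulators, were all kept under both labels and spread around smaller ratios. Under the *ali1* label 14 of the 18 were lower after oxo-C14-HSL (median log2 ratio −0.22), and 13 of the 18 were higher under the Col-0 label (median 0.08). Among all loci kept these shares were 46.8% and 46.8%. None passed 2-fold under either label. *APK2*, a kinase that makes the activated sulfate used in the last core step, had the widest ratio under the *ali1* label, with 236 FPKM after oxo-C14-HSL and 353 FPKM after acetone (−0.58), against 273 and 244 FPKM under the Col-0 label (0.16). *IGMT5*, a methyltransferase that acts on the product of *CYP81F4*, had the widest ratio under the Col-0 label. It had 23.8 and 31.9 FPKM under the *ali1* label (−0.42), against 31.8 and 17.1 FPKM under the Col-0 label (0.89), and was the only gene of the list with a 2-fold difference between labels (−1.31). By contrast *IGMT1*, *IGMT2*, *IGMT3* and *IGMT4*, related methyltransferases of which *IGMT1* and *IGMT2* are known to act on hydroxylated indolic glucosinolates, were lower after oxo-C14-HSL under both labels, like *CYP81F2*. These 4 genes lie in a cluster of similar copies, among which the authors' counting may have shared reads.

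The genes that supply tryptophan followed the same direction as most of the indolic genes. Of the 8 listed, 7 were lower after oxo-C14-HSL under the *ali1* label (median log2 ratio −0.49) and 7 were higher under the Col-0 label (median 0.07). Among all loci kept, 46.8% were lower under the *ali1* label and 46.8% higher under the Col-0 label. The difference between labels was below 0 in 8 of 8, with a median of −0.51, against 45.5% of all loci kept under both labels. *ASA1*, the anthranilate synthase subunit that opens tryptophan synthesis, had 53.5 FPKM after oxo-C14-HSL and 89.4 FPKM after acetone under the *ali1* label (−0.74), against 79.3 and 64.1 FPKM under the Col-0 label (0.31). Its difference between labels (−1.04) was the only one of the 8 past 2-fold, against 2.56% of loci that were lower by as much. *PAI1*, a phosphoribosylanthranilate isomerase with near-identical copies, was the exception under the *ali1* label (0.25) and had the widest ratio under the Col-0 label (0.44).

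The camalexin branch, which uses the same aldoxime, held the widest ratio of any gene kept on these lists. *CYP71A12* had 4.13 FPKM after oxo-C14-HSL and 10.0 FPKM after acetone under the *ali1* label (−1.26), against 12.7 and 2.97 FPKM under the Col-0 label (2.07). *PAD3*, the last enzyme of camalexin synthesis, had 1.35 and 2.30 FPKM under the *ali1* label (−0.72), against 2.25 and 1.18 FPKM under the Col-0 label (0.88). *CYP71A13* was at most 0.171 FPKM, or about 15 reads over 3 libraries, in any group.

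The aliphatic pathway, which makes glucosinolates from methionine, was listed for comparison. Under the *ali1* label 9 of its 12 genes were lower after oxo-C14-HSL (median log2 ratio −0.15), and under the Col-0 label 12 of 12 were higher (median 0.53). Among all loci kept these shares were 46.8% and 46.8%. The difference between labels was below 0 in 12 of 12 (median −0.72), against 45.5% of all loci kept under both labels. The direction seen in the indolic genes was thus seen in this list as well. Without *MYB76*, which lies below 1 FPKM, the 3 medians were −0.13 (*ali1*), 0.50 (Col-0) and −0.63 (difference). *MAM3*, a methylthioalkylmalate synthase, had 2.65 FPKM after oxo-C14-HSL and 5.83 FPKM after acetone under the *ali1* label (−1.11), against 1.91 and 1.63 FPKM under the Col-0 label (0.22). *MYB29*, a regulator of this pathway, had the widest ratio of the genes kept under the Col-0 label (0.78). In contrast to the synthesis genes, *PEN2* and the transporter *PEN3*, which act in breakdown and export, were nearly level after oxo-C14-HSL under the *ali1* label (0.01 and −0.01) and slightly lower under the Col-0 label (−0.14 and −0.17).

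**Figure D5:**
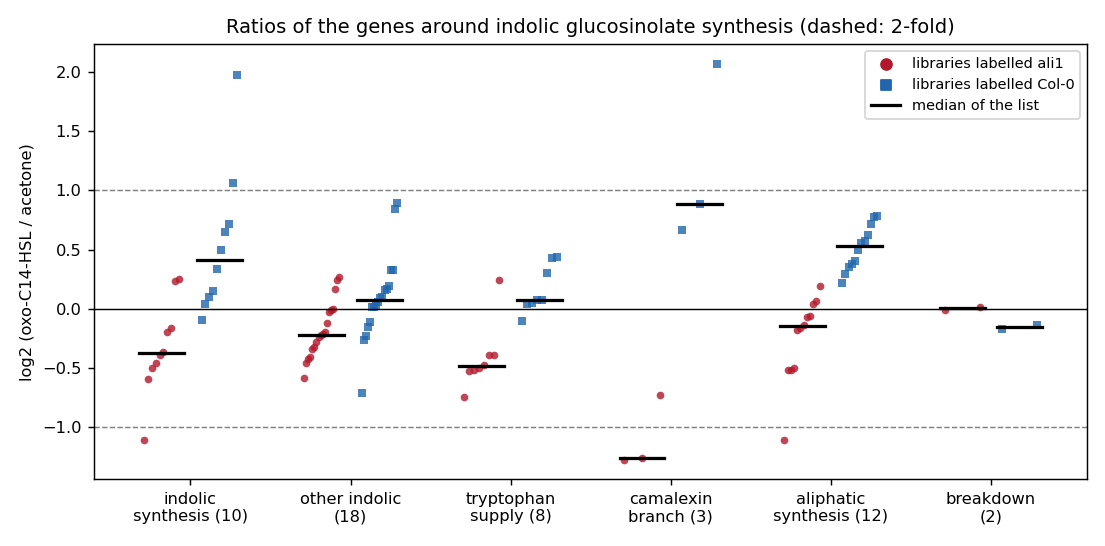
The log2 ratio of oxo-C14-HSL to acetone for each gene of 6 lists around indolic glucosinolate synthesis, under the *ali1* label (red) and the Col-0 label (blue), with the median of each list as a bar and loci below 1 FPKM included. The medians of the indolic genes over all 10 were −0.37 and 0.41, and those of the aliphatic genes −0.15 and 0.53.

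Glucosinolate genes differ in level between organs, and in whole seedlings fewer cells of a type and less RNA per cell cannot be told apart. Of 12 root markers 11 were found, and their summed level was 27.1 and 21.1 FPKM under the *ali1* label after oxo-C14-HSL and after acetone, against 14.7 and 16.2 FPKM under the Col-0 label. The largest part of each sum was *CASP1* alone, with 15.4, 9.02, 6.85 and 10.0 FPKM in the same order. Under the *ali1* label 5 of the 11 were higher after oxo-C14-HSL and 6 lower, and under the Col-0 label 7 were higher and 4 lower. These counts include markers with a mean below 1 FPKM and few reads. Of the markers kept, 4 of 5 were higher under the *ali1* label and 2 of 4 under the Col-0 label. Among all loci kept, 53.2% (*ali1*) and 46.8% (Col-0) were higher. The endodermal markers kept under both labels, *CASP1*, *CASP2* and *CASP4*, were higher after oxo-C14-HSL under the *ali1* label, with log2 ratios between 0.62 (*CASP2*) and 0.91 (*CASP4*). Under the Col-0 label *CASP1* (−0.54) and *CASP4* (−0.31) were lower and *CASP2* (0.27) was higher. *NRT2.1*, of other root tissues, had log2 ratios of −1.28 (*ali1*) and 0.61 (Col-0). *EIR1* had −0.90 (*ali1*) and 2.23 (Col-0), but lay below 1 FPKM under both labels. *EXPA18* was listed at 0 in the *ali1* group after oxo-C14-HSL and in the Col-0 group after acetone, and *COBL9* in the Col-0 group after acetone. The 10 shoot markers summed to 23545 and 24934 FPKM under the *ali1* label, against 25347 and 23682 FPKM under the Col-0 label, with 9 of 10 lower under the *ali1* label and 8 of 10 higher under the Col-0 label after oxo-C14-HSL. The part of these shifts in the glucosinolate values was not tested.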

How the data were processed

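RNA sequencing was done by the authors on 12 libraries, 3 in each of 4 groups. They aligned 100 bp single-end reads with RNAStar and used Cufflinks (2.2.1.0), cuffmerge and Cuffdiff (2.2.1.5), with TAIR10 named in their processing notes. For FPKM the authors deposited 1 value per group from 2 separate cuffdiff runs, normalized within a run by a method not stated in the sources. The tables also hold the authors' log2 fold changes, test statistics, p-values and q-values, which were not used. Only the status column was read, and 44 plastid loci that cuffdiff left out as too deep were dropped, leaving 36057 of 36101.

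Ratios were computed as log2((oxo-C14-HSL + 0.1)/(acetone + 0.1)) for loci with a mean of at least 1 FPKM, with Python 3.11.15, numpy 2.4.6 and pandas 2.3.3, and plotted with matplotlib 3.10.9. The code was tested on simulated data. No test was run, as there is no value per library. Depth was estimated from the spacing of low FPKM values: between 90.0% and 96.9% of low values lay within 0.15 of whole reads. No interval was drawn from it. Loci with several names, 1645 in all, cannot be split. Sequences are from the RefSeq genome TAIR10.1, whose chromosomes are those of the tables, in windows of 250 bases before each annotated start.

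The genes and lists were chosen with earlier results of these data known. Named are the 10 genes, *ALI1*, the genes of each list past 2-fold or otherwise with the widest ratio under each label, and the 3 loci nearest in pattern to the gene with the widest difference between labels. Other genes named, among them *IGMT1* to *IGMT4*, *PAD3*, *CYP71A13*, *PEN2*, *PEN3*, the markers and the neighbours, were chosen after their values were seen. Alternatives covered pseudocounts of 0.01 and 1, limits of 0 and 5 FPKM, centring, a running median in 50 bins, a threshold of 1.5-fold and loci with 1 name. The depth estimate and the centring between labels were added after the data were seen. One marker of the root list is not reported by name here.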

Additional observations from a re-analysis of the deposited data

How the results depend on the processing

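The 10 genes kept the sign of each log2 ratio under each alternative, except *CYP81F2* under the Col-0 label, which was 0.0037 with the running median taken off. The median under the Col-0 label (0.24) was 0.41 with all loci and 0.35 with the running median taken off. The count of genes past 2-fold under the Col-0 label (0 higher) was 2 with all loci and 2 at 1.5-fold, and under the *ali1* label (1 lower) it was 2 at 1.5-fold, 0 at a limit of 5 FPKM and 0 with 1 FPKM added. The count with a 2-fold difference between labels (1 lower) was 3 with all loci, 4 at 1.5-fold and 0 among loci with 1 name, since that of *CYP79B2* holds 3 names. The share of all loci with a 1.5-fold difference was not counted, so the count of 4 cannot be judged.

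Over all loci, 57 were 2-fold higher and 91 lower under the *ali1* label. These counts were 361 and 566 with all loci, 172 and 357 at 1.5-fold, 17 and 22 at 5 FPKM, and 34 and 54 with 1 FPKM added. Under the Col-0 label, 266 were higher and 70 lower, with 950 and 370 for all loci, 1078 and 295 at 1.5-fold, 62 and 29 at 5 FPKM, and 93 and 40 with 1 FPKM added. With the running median taken off they were 168 and 98, a more even split. No paired analysis was possible because the tables hold 1 value per group, and for the same reason no library could be left out. For *MYB122* and *CYP81F3* the estimated 20 to 162 reads per group limit what the ratios can show.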

Other observations

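Several of the 10 genes lie near other glucosinolate genes of the lists, a pattern looked at after the values were seen. Within 20 kb, *MYB51* has the aliphatic sulfotransferase *SOT17* at 7144 bases, *MYB122* has *SOT18* at 5215 and *SOT16* at 6746 bases, and *CYP79B2* has *APK2* at 3436 bases. *SOT16*, which sulfates indolic glucosinolates, had 285 FPKM after oxo-C14-HSL and 391 FPKM after acetone under the *ali1* label (log2 ratio −0.46), against 341 and 298 FPKM under the Col-0 label (0.19). *SOT17* had log2 ratios of −0.51 (*ali1*) and 0.56 (Col-0), and *APK2* had −0.58 and 0.16. *SOT18* had −0.07 (*ali1*) and 0.35 (Col-0). In *SOT16*, *SOT17*, *SOT18* and *APK2* the value was thus lower under the *ali1* label and higher under the Col-0 label. The same held for *MYB51*, *MYB122* and *CYP79B2* beside them. Of all loci kept under both labels, 19.6% had this pattern.

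In the cluster on chromosome 4, *CYP81F1* lies 4189 bases past *CYP81F4*, and had 5.48 and 4.86 FPKM under the *ali1* label (0.17), against 5.35 and 2.95 FPKM under the Col-0 label (0.84). Like *CYP81F4* it was higher after oxo-C14-HSL under both labels, while *CYP81F3* between 0.480 and 1.41 FPKM was not. The related *CYP81D8* on the other side of *CYP81F3* had log2 ratios of −0.02 (*ali1*) and −0.48 (Col-0), and *CYP81D4* had −0.27 and −0.21. The cluster therefore held different directions side by side, at 1 value per group and without a test.

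The 3 loci nearest to *MYB122* in their 2 ratios, by Euclidean distance among loci of 1 name with at least 1 FPKM, were *AT1G70475* (distance 0.157), *GLP4* (0.172) and *AT1G23110* (0.278). *GLP4*, a germin-like protein gene, had 1.21 and 1.73 FPKM under the *ali1* label, against 3.78 and 0.997 FPKM under the Col-0 label. *AT1G70475* had 1.54 and 2.23 FPKM under the *ali1* label, against 3.77 and 0.819 FPKM under the Col-0 label.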
